A study of Mus musculus with 3 samples.

Results

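The CXC chemokine genes *Cxcl1*, *Cxcl2*, *Cxcl3*, *Cxcl5*, *Cxcl9*, *Cxcl10*, *Cxcl11*, *Cxcl12*, *Cxcl14* and *Cxcl16* were taken by gene name from the table of normalized counts, and all 10 were among its 43472 rows. Transcripts were measured by RNA-seq in primary fibroblasts from the tail tips of C57BL/6 mice. The cell layer was wounded by a scratch and received the soluble micrograft (MG), a cell-depleted extract of minced mouse skin, together with PD0325901 (1 μM), an inhibitor of MEK, the kinase that activates ERK. All 3 libraries analysed here are labelled as replicates of this MG + PD0325901 condition at 5 h. The sources used here do not say whether they came from separate animals. No untreated or MG-only sample was analysed here, and every comparison is between genes or between replicates.

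CXC chemokines are small secreted proteins that guide leukocytes through G protein-coupled receptors. A first group, which holds Cxcl1, Cxcl2, Cxcl3 and Cxcl5, acts on Cxcr2 and draws neutrophils to injured tissue, and its genes are textbook targets of NF-kB. Cxcl9, Cxcl10 and Cxcl11 act on Cxcr3 of activated T cells and are induced by interferons. Cxcl12 acts on Cxcr4 and is also bound by Ackr3, Cxcl16 is made as a membrane protein and acts on Cxcr6, and Cxcl14 is a constitutive chemokine of skin and other epithelia. Wounded fibroblasts are a known source of several of these ligands.

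Of the 10 genes, 7 lay in 2 groups on chromosome 5 (GENCODE M21, GRCm38, the build of the authors' alignment). *Cxcl5*, *Cxcl3*, *Cxcl1* and *Cxcl2* lay on the plus strand between 90759360 and 90905938, a stretch of 147 kb that also holds the family genes *Ppbp*, *Pf4* and *Cxcl15*. *Cxcl9*, *Cxcl10* and *Cxcl11* lay on the minus strand between 92321347 and 92365485, 1.42 Mb further on. *Cxcl12* was on chromosome 6 (117168535 to 117181367, plus strand), *Cxcl16* on chromosome 11 (70453983 to 70459984, minus strand) and *Cxcl14* on chromosome 13 (56288643 to 56296551, minus strand). The annotation gives 9 of the genes as protein coding and *Cxcl11* as a polymorphic pseudogene.

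Promoter sequence was read for 7 of the 10 genes from RefSeq (GRCm38.p6), and distances are from the RefSeq start of the gene. The stretch from 250 to 51 bases before this start is shown for 6 of them, 5′ to 3′ on the strand of the gene. *Cxcl1* (chr5:90890995-90891194, plus strand), *Cxcl2* (chr5:90903649-90903848, plus strand) and *Cxcl3* (chr5:90785851-90786050, plus strand) are shown because they share a run of letters. *Cxcl9* (chr5:92328130-92328329, minus strand) and *Cxcl10* (chr5:92348940-92349139, minus strand) are shown because they hold the same kinds of motif at very different levels, and *Cxcl12* (chr6:117168285-117168484, plus strand) because its level was ordered differently over the libraries. Capitals mark matches to an NF-kB motif (GGGANNTTC), an AP-1 motif (TGANTCA) or an interferon response motif (GAAANNGAA), searched on both strands.
Cxcl1: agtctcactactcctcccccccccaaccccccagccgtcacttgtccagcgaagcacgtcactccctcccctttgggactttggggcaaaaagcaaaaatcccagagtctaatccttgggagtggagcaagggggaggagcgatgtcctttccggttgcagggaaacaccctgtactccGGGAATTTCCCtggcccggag
Cxcl2: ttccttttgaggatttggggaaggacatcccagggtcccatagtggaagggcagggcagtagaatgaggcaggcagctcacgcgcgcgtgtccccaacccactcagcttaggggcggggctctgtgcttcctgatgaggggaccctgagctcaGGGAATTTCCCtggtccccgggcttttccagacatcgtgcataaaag
Cxcl3: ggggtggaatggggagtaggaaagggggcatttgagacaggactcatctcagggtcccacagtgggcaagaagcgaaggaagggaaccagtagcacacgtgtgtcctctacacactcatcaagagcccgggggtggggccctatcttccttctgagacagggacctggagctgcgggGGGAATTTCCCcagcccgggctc
Cxcl9: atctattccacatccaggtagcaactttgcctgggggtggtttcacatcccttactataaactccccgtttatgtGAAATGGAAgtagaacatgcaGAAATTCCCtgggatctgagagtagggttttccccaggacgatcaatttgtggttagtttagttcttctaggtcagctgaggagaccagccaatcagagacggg
Cxcl10: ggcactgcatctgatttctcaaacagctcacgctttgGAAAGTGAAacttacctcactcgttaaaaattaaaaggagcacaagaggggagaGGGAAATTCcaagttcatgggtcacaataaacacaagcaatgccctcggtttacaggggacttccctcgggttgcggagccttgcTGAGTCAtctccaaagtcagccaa
Cxcl12: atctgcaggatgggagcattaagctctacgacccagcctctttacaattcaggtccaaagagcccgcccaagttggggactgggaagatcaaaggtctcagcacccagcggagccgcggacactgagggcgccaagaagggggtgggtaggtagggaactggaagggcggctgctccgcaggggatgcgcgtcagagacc
In *Cxcl1*, *Cxcl2* and *Cxcl3* the capitals are the same 11 letters, GGGAATTTCCC, in which the NF-kB motif matches both strands with an overlap. On the strand of the gene this match began 71, 97 and 73 bases before the RefSeq start of *Cxcl1*, *Cxcl2* and *Cxcl3*. For *Cxcl2* the RefSeq start lies further into the gene than the GENCODE start given below (90903871). Its longer distance therefore depends on the annotation used. In *Cxcl10* the interferon response motif began 213, the NF-kB motif 159 and the AP-1 motif 74 bases before the start. In *Cxcl9* the interferon response motif began 175 and the NF-kB motif, on the opposite strand, 154 bases before the start, and an AP-1 motif lay after the start, outside the stretch shown. The whole promoter window, which runs on to 50 bases after the start, held the NF-kB motif in 5 of the 7 genes, against 3.94% of all 32851 RefSeq promoters of the same length. The motifs were shortened to at most 9 letters after a first search. *Cxcl1*, *Cxcl2* and *Cxcl3* are related genes with the same 11 letters and are not separate cases, so these shares are a description only. The AP-1 motif was present in 2 (*Cxcl9* and *Cxcl10*), against 7.81%, and the interferon response motif in 3 (these and *Cxcl14*), against 8.56%. The letters TATAAA were found in 2 (*Cxcl3* and *Cxcl9*), against 13.6% of all promoters. The *Cxcl12* window held none of the searched motifs, which says only that these letters are not in it.

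Depth was 22540518, 27037783 and 17244505 reads on genes in replicates 1, 2 and 3, recovered from the normalized counts as described under the processing. A normalized count is a read count divided by the size factor of its library, and the minimum for detection was set at 10 in each library. By this minimum 8 of the 10 CXC genes were detected, and 60.1% of all 20322 genes with reads. All 8 fibroblast markers were detected, among them *Pdgfrb* with 2894, 2942 and 3129 normalized counts in replicates 1, 2 and 3. The keratinocyte genes *Krt5*, *Krt14*, *Krt15* and *Krt1* had at most 2 reads in any library, and *Krt10*, the only detected gene of the 5 on that list, had 80.8, 39.5 and 32.0 normalized counts. Of the 8 leukocyte markers 2 were detected, *Cd68* and *Lyz2*, and the summed level of all 8 was 150.2, 113 and 723 normalized counts. None of the 5 endothelial markers was detected, and their sum of 20.8, 190.2 and 5.93 came mostly from *Tek* in replicate 2, with 263 reads.

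The neutrophil-attracting group was the most abundant among the 10 genes. *Cxcl5* (ENSMUSG00000029371.7, chromosome 5, 90759360 to 90761624) had 43204, 12852 and 37788 normalized counts in replicates 1, 2 and 3 (mean 31281 ± 16188, SD, n = 3). Replicates 1 and 3 lay near each other and replicate 2 was 2.94-fold below the nearer of them. *Cxcl1* (ENSMUSG00000029380.11, chromosome 5, 90891241 to 90893115) had 12229, 6635 and 22360.1 normalized counts (mean 13741 ± 7971, SD, n = 3). It was the only detected CXC gene with its highest level in replicate 3, and replicate 2 was 1.84-fold below the nearer library, the smallest such step among the 7 genes that were lowest there. *Cxcl2* (ENSMUSG00000058427.10, chromosome 5, 90903871 to 90905938) had 20651, 1889 and 10878 normalized counts (mean 11139 ± 9384, SD, n = 3). Its highest library was 10.9-fold above its lowest, against 3.37-fold for *Cxcl1*; both promoters hold the 11 letters shown above. *Cxcl3* (ENSMUSG00000029379.10, chromosome 5, 90786103 to 90789600) had 7053, 1398 and 5202 normalized counts (mean 4551 ± 2883, SD, n = 3) and a 5.05-fold range. Even the lowest library held 1984 reads of *Cxcl3*, a counting error of 2.25%, so the distance between libraries in this group was far larger than counting error.

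*Cxcl2* and *Cxcl3* are close copies, and part of their reads could not be assigned to one of them. Of the 50-base windows in *Cxcl2* transcripts, the length of a read here, 5.84% were also present in *Cxcl3* transcripts letter by letter and 12.5% with up to 2 mismatches, the number the aligner allowed. Of the *Cxcl3* windows, 7.69% matched *Cxcl2* or *Cxcl11* with up to 2 mismatches. For *Cxcl1*, *Cxcl10*, *Cxcl12*, *Cxcl14* and *Cxcl16* no such window was found letter by letter in a transcript of another gene. Reads from windows shared letter by letter have no unique place, and the authors kept unique reads only. How reads within 2 mismatches of the other gene were placed was not tested. The levels of *Cxcl2* and *Cxcl3* are therefore uncertain to an extent not measured here.

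The Cxcr3 ligands were low or at the limit of detection. *Cxcl10* (ENSMUSG00000034855.13, chromosome 5, 92346638 to 92348889) had 499, 85.3 and 455 normalized counts in replicates 1, 2 and 3 (mean 347 ± 227, SD, n = 3). Replicate 2 was again the lowest, 5.34-fold below the nearer library. *Cxcl9* had 1, 3 and 0 reads, and *Cxcl11* had 5, 0 and 0 reads. A count of 0 allows up to 3 reads, which equals 2.61, 2.11 and 3.56 normalized counts in replicates 1, 2 and 3 and covers counting error only. Both genes were under the 10 reads per pair that the tests between libraries required. When genes with at least 1 read were tested as well, *Cxcl11* was lower in replicate 2 than in replicate 1 (adjusted p = 0.036, exact binomial test), against 52.0% of all genes different, and the 5 reads against 0 in replicate 3 missed the threshold (adjusted p = 0.16, exact binomial test). *Cxcl9* missed it in each pair. *Cxcl10* shares exonic bases with *Art3* on the opposite strand, while how strand was handled in counting is not given in the sources used here. *Art3* itself had 9, 1 and 7 reads.

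*Cxcl12* was ordered differently from the rest. It (ENSMUSG00000061353.11) had 709, 2572 and 550.0 normalized counts in replicates 1, 2 and 3 (mean 1277 ± 1124, SD, n = 3). It was the only detected CXC gene that was highest in replicate 2, and its range was 4.68-fold. *Cxcl14* (ENSMUSG00000021508.11) had 9463, 226 and 871 normalized counts (mean 3520.2 ± 5157, SD, n = 3). Its 41.8-fold range was the widest of the family, and replicate 1 held most of the sum of the 3 libraries. *Cxcl16* (ENSMUSG00000018920.11) had 976, 290.3 and 935 normalized counts (mean 734 ± 385, SD, n = 3). Replicates 1 and 3 of *Cxcl16* were close together and replicate 2 was 3.22-fold below them. Exons of *Cxcl16* overlap *Zmynd15* on the opposite strand, which had 18.2, 18.3 and 16.6 normalized counts.

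**Figure D1:**
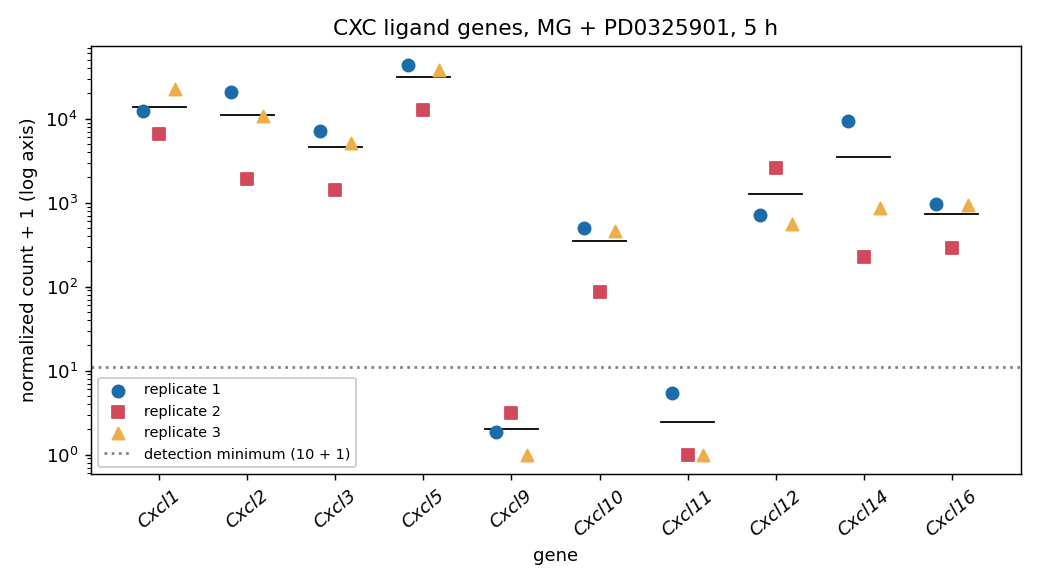
Normalized count + 1 on a log axis for each of the 10 CXC ligand genes, with 1 symbol per library and a black line at the mean of the 3 libraries. The square of replicate 2 is the lowest symbol for 7 of the 8 genes above the dotted detection minimum, and the highest for *Cxcl12*.

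The 3 libraries were then compared gene by gene. Replicate 2 was known from earlier results of these data to be lowest for some CXC genes. The counts for this library therefore describe a pattern already seen in part. For 7 of the 8 detected CXC genes, or 87.5%, the lowest level was that of replicate 2, against 37.3% of all 12204 detected genes. Replicate 2 was highest for the remaining gene, *Cxcl12*, against 40.6% of all detected genes. On the scale of log2(normalized count + 1), replicate 2 was more than 2-fold below both other libraries for 6 of 8 CXC genes (*Cxcl2*, *Cxcl3*, *Cxcl5*, *Cxcl10*, *Cxcl14* and *Cxcl16*), against 4.87% of the 13154 genes with a mean of at least 10. It was more than 2-fold above both for *Cxcl12*, against 5.2% of those genes. Replicate 1 was more than 2-fold above both others for 1 CXC gene, *Cxcl14*, against 2.29% of genes, and below both for none, against 1.97%. Replicate 3 was apart in this way for 0 CXC genes, against 2.3% of genes below and 1.28% above. In RNA from whole cultures, fewer cells of a type and less RNA per cell cannot be told apart.

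**Figure D2:**
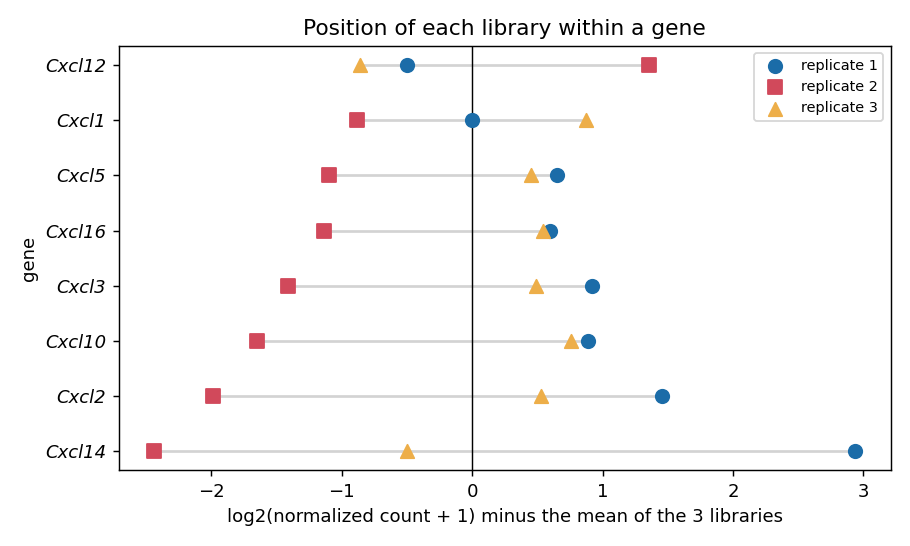
Each library's log2(normalized count + 1) minus the mean of the 3 libraries, for the 8 detected CXC genes in the order of replicate 2. Replicate 2 runs from -2.44 for *Cxcl14* to 1.36 for *Cxcl12*, and replicates 1 and 3 lie close together for *Cxcl5*, *Cxcl10* and *Cxcl16*.

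Pairs of libraries were also compared by exact binomial tests (two-sided) on recovered reads, with Benjamini-Hochberg adjustment over all genes tested and a threshold of 0.05. These tests cover counting error only and compare 2 libraries, not conditions. Between replicates 1 and 2, all 8 CXC genes with enough reads differed, 7 lower and 1 higher in replicate 2, against 69.1% of all genes different, 33.1% lower and 36.0% higher. The largest adjusted p in this exact binomial test was 8e-93, for *Cxcl10*. Between replicates 2 and 3, all 8 differed as well, 7 higher and 1 lower in replicate 3, against 62.6% of all genes different, 30.5% higher and 32.1% lower. Between replicates 1 and 3, 6 of 8 differed, 1 higher and 5 lower in replicate 3, against 52.0% of all genes different, 26.5% higher and 25.5% lower. *Cxcl10* and *Cxcl16* missed the threshold there, with ratios of replicate 3 to replicate 1 of 0.912 and 0.958 and adjusted p of 0.25 and 0.47 in the exact binomial test. With more than 2-fold required as well, 7 of 8 CXC genes differed between replicates 1 and 2, against 20.5% of all genes, 8 of 8 between replicates 2 and 3, against 16.5%, and *Cxcl14* alone between replicates 1 and 3, against 9.32%. The median log2 ratio of the CXC genes was -2.04 for replicate 2 against 1, -0.28 for replicate 3 against 1 and 1.82 for replicate 3 against 2, while the median over all genes tested was 0.02, -0.01 and -0.01. Most genes were called in each pair, so a call by itself does not separate these genes from the rest.

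The spread between replicates was wide for every detected CXC gene. The median SD of log2(normalized count + 1) over the 8 genes was 1.22, against 0.30 over all detected genes, and all 8 lay above that median. *Cxcl1* had the smallest SD, 0.88, which still exceeded that of 93.3% of detected genes, and *Cxcl14* the largest, 2.72, above 99.9% of them. All 8 had a more than 2-fold range over the 3 libraries, against 22.0% of detected genes. Without replicate 2 the median SD of the CXC genes was 0.28. The same median over all detected genes was not computed for replicates 1 and 3, so this value cannot be set against 0.30. Only *Cxcl14* had a more than 2-fold difference between these replicates, against 6.31% of detected genes. *Cxcl2* and *Cxcl1* were nearest to that limit, with ratios of replicate 3 to replicate 1 of 0.527 and 1.83, in opposite directions.

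**Figure D3:**
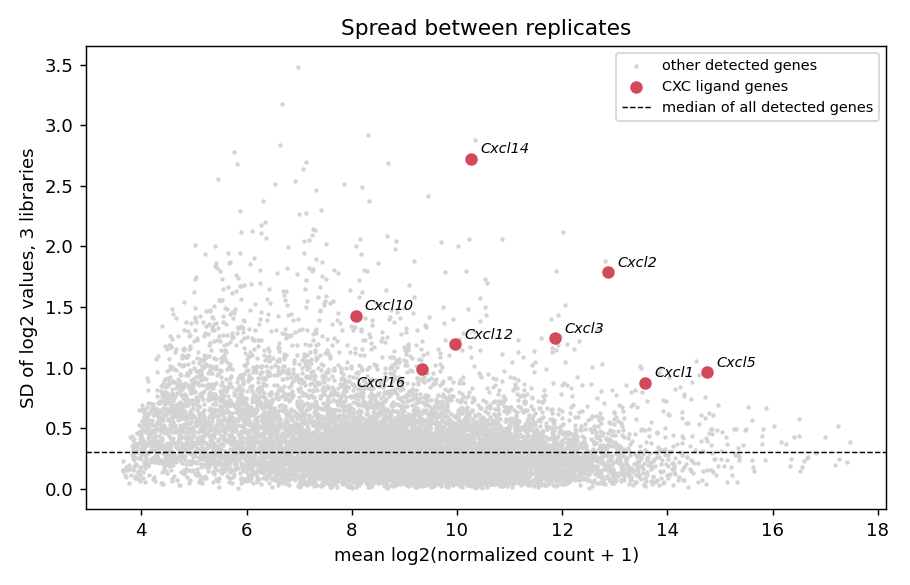
SD of log2(normalized count + 1) over the 3 libraries against the mean of the same values, with 1 point for each of the 12204 detected genes and the CXC genes named. All 8 CXC genes lie above the dashed line, the median of 0.30, between 0.88 for *Cxcl1* and 2.72 for *Cxcl14*.

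Levels were compared between genes after division by exonic length, since longer transcripts collect more reads. For *Cxcl1*, *Cxcl2*, *Cxcl3* and *Cxcl10* the annotated exons together cover the whole gene (1875, 2068, 3498 and 2252 bases). Any intron of theirs is thus counted as exon, which can lower their level per kb beside *Cxcl5*, *Cxcl14* or *Ppbp*. The order and the shares below depend on these lengths. *Cxcl5* led with 16791 ± 8689 normalized counts per kb (SD, n = 3), followed by *Cxcl1* with 7329 ± 4251 and *Cxcl2* with 5387 ± 4538. *Cxcl5* was above *Cxcl1* in each of the 3 libraries, although their ranges overlapped. *Cxcl1* was above *Cxcl2* in 2 of 3 libraries, with the reverse order in replicate 1. *Cxcl14* with 1927 ± 2823 and *Cxcl3* with 1301 ± 824 per kb (SD, n = 3) were not separated, as *Cxcl14* was the higher in replicate 1 only. *Cxcl3* was above *Cxcl16*, with 243 ± 127 per kb (SD, n = 3), with no overlap of their ranges. *Cxcl16*, *Cxcl12* with 156 ± 138 and *Cxcl10* with 154 ± 101 per kb (SD, n = 3) overlapped each other. *Cxcl12* ranked 8 of the 8 genes in replicates 1 and 3 and 5 in replicate 2.

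The 10 CXC genes together took 0.484%, 0.136% and 0.387% of the reads on genes in replicates 1, 2 and 3. The summed level per kb of the 8 detected ones was 47526, 12322 and 40012. *Ppbp*, described below, is in neither these sums nor the shares that follow. The mix changed less than the sum for *Cxcl5*, whose share of the summed level was 48.8%, 56.0% and 50.7%. *Cxcl2* held 21.0%, 7.41% and 13.1%, and *Cxcl1* held 13.7%, 28.7% and 29.8%. The share of *Cxcl14* was 10.9% in replicate 1 and 1.0% and 1.19% in replicates 2 and 3. *Cxcl12* made up 0.182%, 2.55% and 0.168%, so that its share in replicate 2 was near that of *Cxcl3*, 3.24%.

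**Figure D4:**
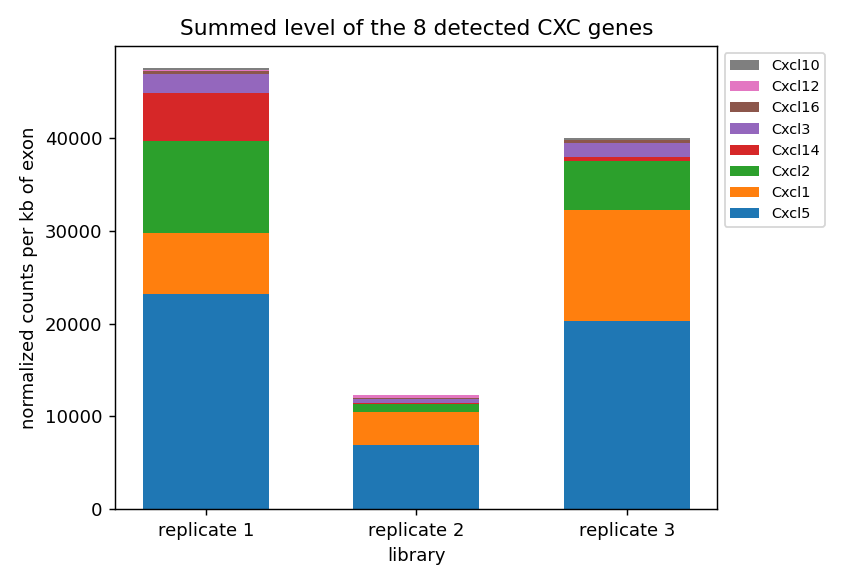
Summed level of the 8 detected CXC genes in each library, in normalized counts per kb of exon, with 1 colour per gene. The bar of replicate 2 reaches 12322 against 47526 and 40012 in replicates 1 and 3, and *Cxcl5* fills the largest part of each bar.

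Of the 5 other CXC ligand genes examined, 1 was detected. *Ppbp*, which encodes platelet basic protein and lies between *Cxcl5* and *Cxcl3* on chromosome 5, had 18016, 5880 and 11575 normalized counts in replicates 1, 2 and 3. Per kb this was 16636, 5429 and 10688, between *Cxcl5* and *Cxcl1* in replicates 1 and 2 and below both in replicate 3. This order depends on the exonic length of *Cxcl1*, which covers its whole gene. Its neighbours *Pf4*, with 18, 10 and 24 reads, and *Cxcl15*, with 44, 4 and 11 reads, were far lower, so the genes of this stretch of chromosome 5 were not all abundant. *Cxcl13* had no reads and *Cxcl17* at most 2.

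Of the 10 receptor genes, 2 were detected. *Ackr3*, the scavenging receptor of Cxcl12, had 584, 1219 and 741 normalized counts in replicates 1, 2 and 3, highest in the same library as *Cxcl12*. *Cxcr6*, the receptor of Cxcl16, had 168, 57.1 and 236 normalized counts, lowest in the same library as *Cxcl16*. Of all detected genes 40.6% were highest and 37.3% lowest in replicate 2, so such a match is common. *Cxcr2*, the receptor of the neutrophil-attracting group, had 35, 13 and 14 reads, just under the detection minimum in replicate 2. *Cxcr4*, the signalling receptor of Cxcl12, had 0, 4 and 0 reads. *Cxcr1*, *Cxcr3* and *Ackr1* had no reads, and *Cxcr5*, *Ackr2* and *Ackr4* had at most 4 in any library.

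**Figure D5:**
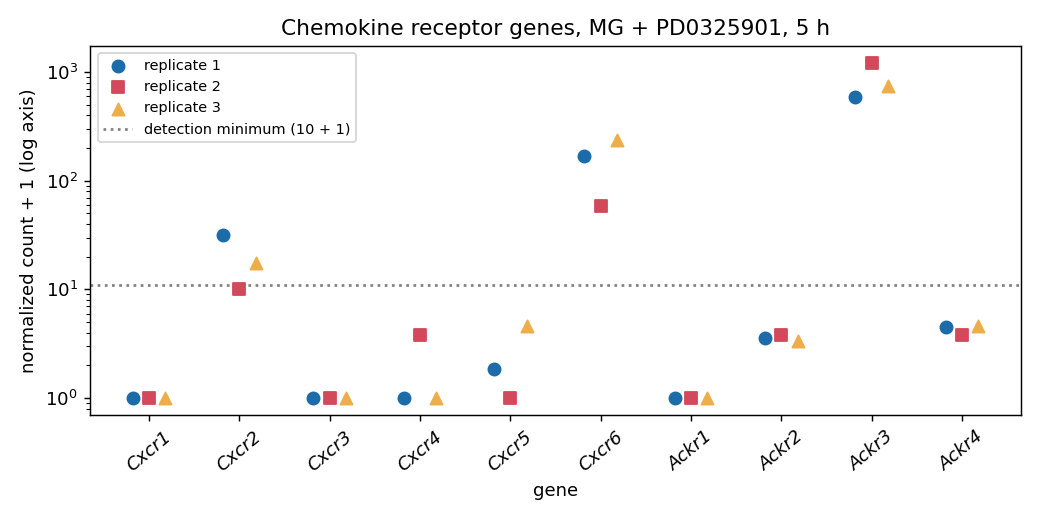
Normalized count + 1 on a log axis for the 10 CXC and atypical chemokine receptor genes, with 1 symbol per library. *Ackr3* and *Cxcr6* are above the dotted detection minimum in every library, with replicate 2 highest for *Ackr3* (1219) and lowest for *Cxcr6* (57.1).

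Genes that act upstream of the ligands were read from the same libraries. Among the 6 cytokine genes known to induce CXC ligands, *Tnf* had 60, 5 and 30 reads and *Il1a* had 32, 18 and 76 reads in replicates 1, 2 and 3. *Il1b* had at most 11 reads, and *Il17a*, *Ifnb1* and *Ifng* had none. All 5 genes of their receptors were detected, with *Tnfrsf1a* at 3918, 4493 and 4343 normalized counts, a range of 1.15-fold. The 6 NF-kB genes were all detected and 5 were lowest in replicate 2, against 37.3% of all detected genes. *Nfkbia*, the inhibitor that NF-kB itself induces, had 5462, 2068 and 6037 normalized counts, and *Tnfaip3*, another induced inhibitor, had 1349, 538 and 1853. The subunit gene *Rela* moved little, with 2553, 2374 and 2848 normalized counts. In the exact binomial tests 5 of the 6 were lower in replicate 2 than in replicate 1 and 0 higher, against 33.1% and 36.0% of all genes, and 6 of 6 were higher in replicate 3 than in replicate 2, against 30.5%. Between replicates 1 and 3 all 6 were higher in replicate 3, against 26.5%, with a median log2 ratio of 0.31, whereas 5 of the 6 CXC genes called in that pair were lower.

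All 10 interferon genes were detected. Of these, 3 were lowest in replicate 2, *Isg15* and *Gbp2* among them, against 37.3% of all detected genes, and their summed level was 2376, 2232 and 2614 normalized counts in replicates 1, 2 and 3. *Isg15*, a ubiquitin-like protein induced by type I interferon, had 84.2, 76.8 and 87.7 normalized counts, a 1.14-fold range against 5.86-fold for *Cxcl10*. *Ifit1*, an antiviral effector, had 53.0, 95.1 and 65.2 normalized counts, highest in replicate 2. The widest ranges on the list were those of *Ifit3*, 3.03-fold with 39.1, 103 and 119 normalized counts, and *Rsad2*, 2.65-fold with 31.3, 56.4 and 83.0, and both genes were lowest in replicate 1. In the exact binomial tests 6 of the 10 were higher in replicate 2 than in replicate 1 and 1 was lower, against 36.0% and 33.1% of all genes. Between replicates 2 and 3, 3 were higher and 2 lower in replicate 3, against 30.5% and 32.1%, and between replicates 1 and 3, 4 were higher and 1 lower, against 26.5% and 25.5%.

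Genes whose order over the libraries was most like that of *Cxcl2* and *Cxcl12* were sought among the 9992 genes that averaged 100 normalized counts or more. Likeness was the distance between log2(normalized count + 1) values, each centred on its gene's mean, over the 3 libraries. Nearest to *Cxcl2* were *Tnfsf11*, *Pdgfb*, *Ccl20*, *2010300F17Rik* and *Fndc1*, at distances of 0.198 to 0.355. *Tnfsf11* had 394, 35.9 and 248 normalized counts in replicates 1, 2 and 3. Distances within the family were read for the 8 detected genes of the 10 only, without *Ppbp*. Among these the nearest to *Cxcl2* was *Cxcl10*, at 0.701, ahead of its close copy *Cxcl3*, at 0.791, while *Cxcl1* was at 1.86. Nearest to *Cxcl12* were *Kif20b*, *Siglecg*, *S1pr1*, *Cilp* and *Runx1t1*, at 0.0404 to 0.105. *S1pr1* had 233, 876 and 171 normalized counts. Among the same 8 genes the nearest to *Cxcl12* was *Cxcl1*, at 2.88. With 3 libraries such likeness is a description only.

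Other genes also differed between the libraries. The leukocyte marker sum was highest in replicate 3, mostly from *Lyz2*, with 123, 62.7 and 601 normalized counts in replicates 1, 2 and 3. *Cd68*, the other detected marker, had 22.6, 33.1 and 27.3 and was highest in replicate 2. *Tyrobp*, *Cd52* and *Laptm5* reached 13, 8 and 31 reads in replicate 3, with *Ptprc* at 1 read and *Lyz2* at 507. Among the fibroblast markers *Lum*, a collagen-binding proteoglycan, had 5073, 289 and 1164 normalized counts, and *Dcn* had 3661, 1723 and 3659. The order of libraries of *Lum* was also that of *Cxcl2*, *Cxcl3*, *Cxcl5*, *Cxcl10*, *Cxcl14* and *Cxcl16*. How many of all genes had this order was not counted. *Col1a1*, *Col1a2* and *Col3a1* had ranges of 1.6-fold, 1.8-fold and 1.4-fold. Those of *Pdgfra*, *Pdgfrb* and *Vim* were 1.43-fold, 1.08-fold and 1.22-fold. The part of these differences in the CXC levels was not tested.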

How the data were processed

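RNA-seq was analysed from 3 MG + PD0325901 libraries of wounded mouse fibroblasts, replicates 1, 2 and 3. A further 3 columns of per-sample values could not be assigned to a sample and were not used. Adapters were removed by the authors with ea-utils, and single-end reads of 50 bp were mapped to mm10 by TopHat with up to 2 mismatches. They kept unique reads and counted these per gene with HT-Seq count. The gene annotation and strand setting are not given in the sources used here. The deposited signal is normalized counts, in which the authors divided read counts by 1 size factor per library. Dividing by the smallest value above 0 gave whole numbers for 100% of values in every library (tolerance 0.01), taken as read counts, with size factors of 1.15, 1.42 and 0.844. Reads carried no molecular identifiers, so tests and limits cover counting error only.

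Members and gene lists were chosen with earlier results of these data known. Genes named were the 10 members, the lists for receptors, other ligands, cutting or holding proteins, cytokines and their receptors, NF-kB, interferon and cell types, and the 5 genes most like *Cxcl2* and *Cxcl12*. *Art3* and *Zmynd15* were added because their exons overlap a member. Log2 values used a pseudocount of 1. Pairs of libraries were compared by exact binomial tests on genes whose reads in the pair summed to at least 10. Motifs were shortened to at most 9 letters after a first search. The steps were tested on simulated data. Exonic length is the union of GENCODE M21 exons. *Adgre1* was matched by its older name. Python 3.11.15, numpy 2.4.6, scipy 1.17.1 and pandas 2.3.3 were used, with edgeR 4.0.16 in R 4.3.3 for TMM factors. Other scalings, minimums, pseudocounts, fold limits and each replicate left out were tried. Values of 1 gene of the interferon list are not reported here.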

Additional observations from a re-analysis of the deposited data

How the results depend on the processing

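No paired analysis was possible because all 3 libraries belong to the same condition. With each replicate left out, the median SD of log2 values over the detected CXC genes was between 0.28 and 1.48, and the number with a more than 2-fold range was between 1 and 8, in both cases lowest without replicate 2. The counts of genes with such a range were chosen after seeing the data. Between replicates 1 and 3, requiring more than 2-fold as well left 1 of 6 CXC genes different. Such a requirement can only lower a count, but it left 7 of 8 between replicates 1 and 2. Between replicates 2 and 3 it left 8 of 8. Without division by length, 4 of 8 genes kept their rank by level, as genes differ in length. Of the alternatives to the counts, the median spread and the ranks, 44 of 48 stayed within 1.5 times the count or within the spread. Under both scaling alternatives the mean level of each CXC gene moved by less than 1 SD, in 20 of 20 values, and 0 ranks changed. The limit of 1 SD was a weak check, because the SDs were large. For *Cxcl2* the mean was 11139 with an SD of 9384, and 12522 when scaled by library totals. Without replicate 1, *Cxcl3* ranked 4 and *Cxcl14* 5. Without replicate 2, *Cxcl10* ranked 7 and *Cxcl12* 8, and without replicate 3, *Cxcl2* ranked 2 and *Cxcl1* 3. *Cxcl9* and *Cxcl11* had too few reads for the main tests between libraries at these depths.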

Other observations

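Proteins that cut or hold CXC ligands were examined beside them, and 5 of 6 genes were detected. *Sdc4*, a heparan sulfate proteoglycan of the cell surface, had 18785, 6933 and 24404 normalized counts in replicates 1, 2 and 3, lowest in replicate 2 like most CXC ligands. *Sdc1*, of the same family, had 6006, 13261 and 6558, highest in replicate 2 like *Cxcl12*. Of all detected genes 37.3% were lowest and 40.6% highest in that library. *Adam10* and *Adam17*, proteases that can shed membrane-bound Cxcl16, varied little, with ranges of 1.28-fold and 1.3-fold. *Mme*, a membrane peptidase, had 276, 40.2 and 141 normalized counts. *Dpp4*, which clips Cxcl12 and Cxcl10, had 2, 18 and 0 reads.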
